A study of Mus musculus with 10 samples.

Results

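Sialic acids are the charged sugars that cap many glycans on the surface of animal cells. This account follows 10 of the 53546 genes in the deposited count table: Npl, the lyase that breaks free sialic acid down; Neu1, Siae, Gne, Nans, Nanp and Cmas, which release, trim, make or activate sialic acid; and Siglec1, Cd33 and Siglece, receptors that bind it. Npl was chosen by its level in homozygous against wild-type mice, where it came close to the threshold of the test without passing it. The other 9 genes were added for their place in the same pathway. Every gene symbol was found in the table once, and all 10 had enough counts to be tested.

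The cells were CNS-associated macrophages, the macrophages of the borders of the brain, isolated by fluorescence-activated cell sorting from brains of individual C57BL/6N mice aged 6 to 8 weeks that had received no treatment. Cre-Cre mice (Mrc1-CreERT2/Mrc1-CreERT2, n = 4) carried 2 copies of an allele that, by its name, places the tamoxifen-responsive recombinase CreERT2 at Mrc1, which encodes the mannose receptor CD206. Cre-pos mice (Mrc1-CreERT2/wt, n = 3, replicates 1, 2 and 4) carried 1 copy, and WT mice (n = 3) carried 0. The labels name no other engineered allele, and the comparisons ask whether carrying the allele goes with other transcript levels. The labels do not say whether mice of a genotype were littermates, nor how the sort was gated.

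Libraries held 27358042 to 36575446 counts in Cre-Cre, 22986972 to 32326603 in Cre-pos and 28668839 to 32931690 in WT mice. Levels are given as CPM, counts per 1000000 counts of the library after scaling with trimmed-mean-of-M-values (TMM) factors. Mrc1 itself averaged 489 ± 48.6 CPM in Cre-Cre, 2153 ± 153 in Cre-pos and 3481 ± 365 in WT mice (SD, n = 4, 3 and 3), in the order of the labelled genotypes. For Cre-pos against WT its log2 fold change was -0.69 ± 0.11 (SE), and these libraries did not overlap. The edgeR test still did not call Mrc1 there (adjusted p = 0.300), so a missing call in that comparison does not show an unchanged level. Each of the 12 border macrophage markers examined, Lyve1, Cd163, Pf4 and Stab1 among them, had counts in every genotype. Microglial transcripts were present too: the summed level of 10 microglia markers ran from 6736 to 8843 CPM in Cre-Cre, 8978 to 11747 in Cre-pos and 8130 to 15013 in WT libraries. Fcrls made up the largest part of that sum and averaged 5199 CPM in Cre-Cre, 4831 in Cre-pos and 4559 in WT mice, while the other 9 were lower on average in Cre-Cre than in WT mice. The median log2 fold change of the 10 markers was -1.30 for Cre-Cre against WT, -0.32 for Cre-pos against WT and -0.94 for Cre-Cre against Cre-pos, and edgeR called none of them. Levels in a sorted population with more than 1 kind of cell are averages, so fewer cells of a type and less RNA per cell cannot be told apart in any value below.

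Free sialic acid is built in the cytosol from UDP-N-acetylglucosamine, activated in the nucleus to CMP-sialic acid, carried into the Golgi and attached to glycans by sialyltransferases. In the lysosome, sialidases remove it again, a transporter returns it to the cytosol, and there it is either used again or cleaved by the lyase encoded by Npl into N-acetylmannosamine and pyruvate. Siglecs are lectins of the immunoglobulin superfamily that recognise these caps on the same or on neighbouring cells. Many of them carry inhibitory motifs that recruit phosphatases, and macrophages and microglia are among the cells richest in them.

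To compare levels between genes, CPM were divided by the length of all annotated exons of the gene, merged over its transcripts, in GENCODE vM21. On this per-length scale, averaged over the 10 libraries, Siglece was the most abundant of the 10 genes at 85.2 CPM per kb, followed by Npl at 62.3, Neu1 at 55.1, Cd33 at 47.8 and Siglec1 at 45.4 CPM per kb. Each of these 5 genes overlapped its neighbours in this order over the libraries, so neighbours are not resolved, but every library had Siglece above 55.7 CPM per kb and Cd33 at or below 55.2 CPM per kb. A second set of genes lay below them, with Siae at 9.01, Cmas at 8.71, Nans at 8.67 and Gne, the first enzyme of synthesis, at 3.85 CPM per kb, and the ranges of these 4 overlapped as well. Nanp, at 0.875 CPM per kb, lay below every other gene in all libraries. Other genes share 50.8% of the 50-base stretches of its transcripts, and how such reads were counted is not known, so its level is uncertain. The genes of sialic acid removal, breakdown and recognition were the abundant ones, apart from Siae, and the 4 genes of synthesis and activation were scarcer, with no overlap between the 2 sets in any library. The place of Npl among the first 5 depended on genotype, since its mean level was 75.4 CPM per kb in Cre-Cre, 63.1 in Cre-pos and 44.0 in WT mice. By CPM alone the order was different: Cd33 averaged 371, Siglec1 324, Neu1 206, Npl 184 and Siglece 158 CPM. Siae averaged 94.6 CPM, against 41.1 for Cmas and 39.7 for Nans. The order of these genes therefore rests on the choice of length.

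**Figure D1:**
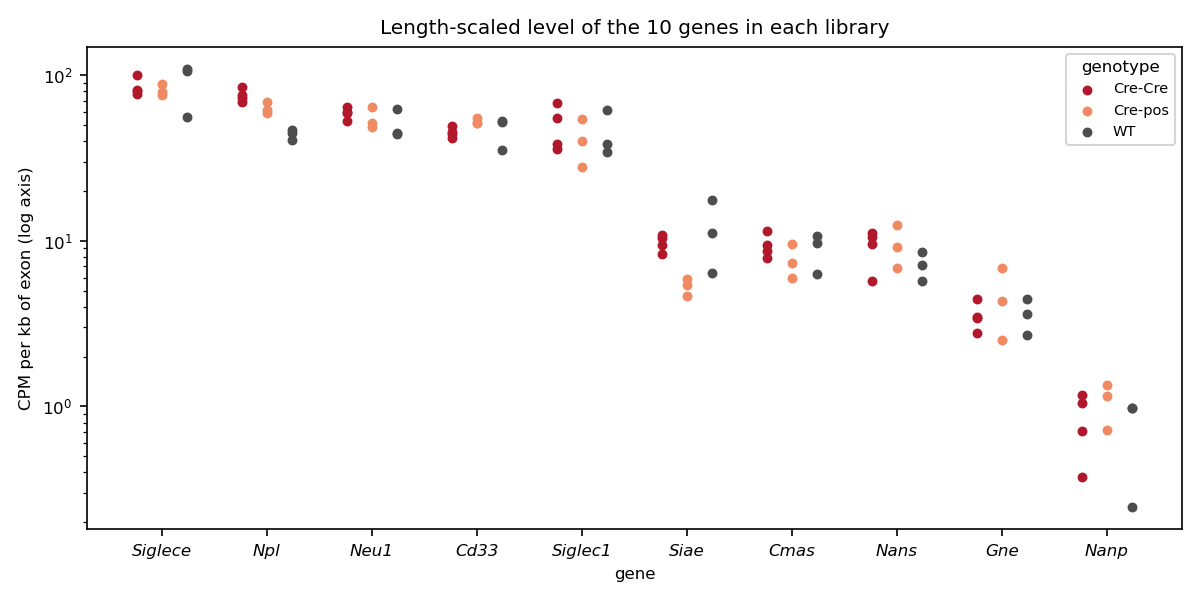
Level of each of the 10 genes in each library, in CPM per kb of exon on a log axis, with Cre-Cre libraries left, Cre-pos libraries in the middle and WT libraries right for each gene. Siglece, Npl, Neu1, Cd33 and Siglec1 lie between 27.9 and 109 CPM per kb, and the other 5 genes lie at or below 17.5 CPM per kb.

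Npl was the only gene of the 10 whose genotypes did not overlap in any pairing. Over all tested genes, groups did not overlap in 7.97% for Cre-Cre against WT, 9.6% for Cre-pos against WT and 7.47% for Cre-Cre against Cre-pos. The share without overlap in all 3 pairings was not computed. Npl was selected on Cre-Cre against WT. It was at 223, 251, 214 and 204 CPM in Cre-Cre replicates 1 to 4, 203, 175 and 183 CPM in Cre-pos replicates 1, 2 and 4, and 132, 119.9 and 139 CPM in WT replicates 1 to 3. The lowest Cre-Cre library lay just above the highest Cre-pos library, and the lowest Cre-pos library lay well above the highest WT library. Between 3886 and 9201 counts stood behind each of these values. The spread among mice of a genotype was small, with means of 223 ± 19.97 CPM in Cre-Cre, 187 ± 14.2 CPM in Cre-pos and 130 ± 9.52 CPM in WT mice (SD, n = 4, 3 and 3).

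Because Npl was selected on its level in Cre-Cre against WT mice, that contrast is a description and carries no test here. The fitted log2 fold change was 0.78 ± 0.12 (SE), a 1.71-fold higher level in Cre-Cre mice. Cre-pos against WT mice, which uses the same WT libraries, gave 0.52 ± 0.13, a 1.43-fold higher level in Cre-pos mice, with a 95% interval of 0.24 to 0.80. It did not pass edgeR's quasi-likelihood test (adjusted p = 0.658 over all 14023 genes tested). DESeq2, run as an alternative, did call Npl in Cre-pos against WT, with an adjusted p of 0.0251. No other of the 19 alternatives did. Npl was selected against these same WT libraries, so this contrast is not free of that selection. Cre-Cre against Cre-pos mice, which uses the same Cre-Cre libraries, gave 0.26 ± 0.12 with a 95% interval of -0.0069 to 0.52 (edgeR, adjusted p = 1). Mice with a pair of alleles and mice with a single allele were therefore not separated by the test for Npl, although their libraries did not overlap. That contrast shares the Cre-Cre libraries on which Npl was selected, so it is not free of the selection either.

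The border macrophage markers are given beside Npl. Without Mrc1, the other 11 markers of that list, all detected, summed to 19990 to 20376 CPM in Cre-Cre, 14962 to 17628 CPM in Cre-pos and 13875 to 16426 CPM in WT libraries. Cre-Cre libraries lay above both other genotypes in that sum, and Cre-pos and WT libraries overlapped. The median log2 fold change of the 11 markers was 0.44 for Cre-Cre against WT, where edgeR called 1, and 0.08 for Cre-pos against WT, where it called 0. Per 10000 CPM of these markers, Npl stood at 101 to 125 CPM in Cre-Cre, 104 to 126 CPM in Cre-pos and 73.0 to 97.3 CPM in WT libraries. On that relative scale the Cre-Cre and Cre-pos libraries overlapped, and both lay above the WT libraries. The margin was narrow, from 97.3 CPM in the highest WT library to 101 CPM in the lowest Cre-Cre library. This scale was computed for Npl and Glb1 only, so no share over all genes stands beside it. It also uses the Cre-Cre and WT libraries on which Npl was selected, so nothing is read from the separation. Most microglia markers were lower on average in Cre-Cre than in WT mice, as given above, and the part of either cell type in the level of Npl was not tested.

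**Figure D2:**
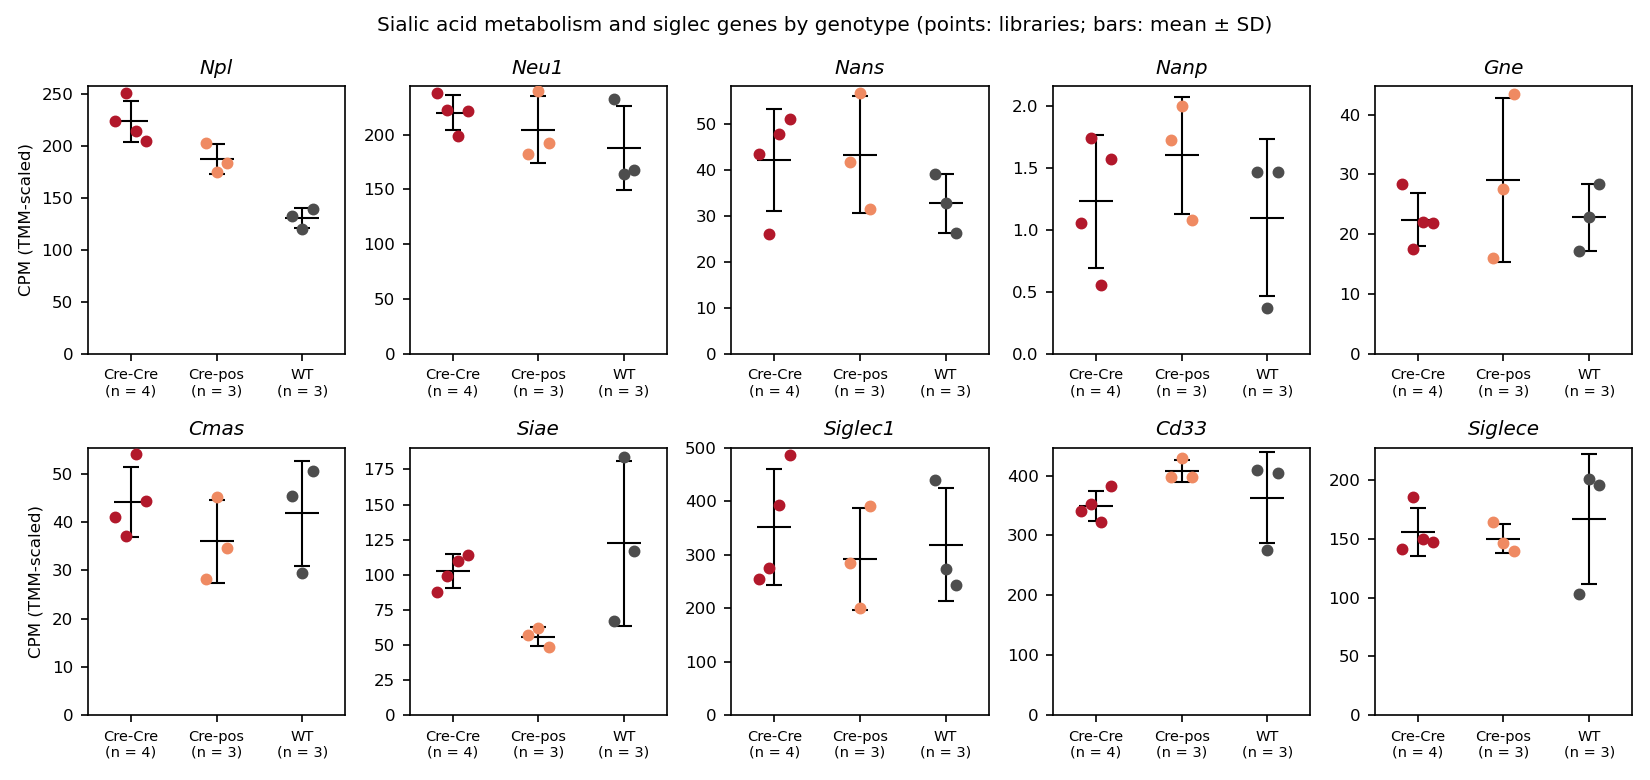
TMM-scaled CPM of the 10 genes by genotype. Each point is a library, and the bars are the mean and SD (n = 4 Cre-Cre, 3 Cre-pos and 3 WT mice). Npl is the only panel in which no 2 genotypes overlap, at 204 to 251 CPM in Cre-Cre, 175 to 203 CPM in Cre-pos and 119.9 to 139 CPM in WT libraries.

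To see which genes shared the profile of Npl, each gene with a mean of at least 20 CPM was centred on its own mean log2 CPM and compared with Npl over the 10 libraries. This is a description over libraries that share genotype, and nothing was tested. The 5 nearest of 6442 genes were Tm7sf3, at a root-mean-square difference of 0.15 log2 units, Stab1 at 0.16, Akap13 at 0.16, Marcksl1 at 0.17 and Dpp7 at 0.17, against a median of 0.51 over all these genes. Stab1 encodes a scavenger receptor that marks border macrophages, and Dpp7 encodes a lysosomal peptidase. Stab1 averaged 3406 CPM in Cre-Cre, 2888 CPM in Cre-pos and 2349 CPM in WT mice, and Dpp7 averaged 259 CPM in Cre-Cre, 214 CPM in Cre-pos and 174 CPM in WT mice. Among the other genes of the pathway list with a mean of at least 20 CPM, Glb1 was closest to Npl, at rank 19 with 0.20, then Ctsa at rank 209 and Neu1 at rank 331. Siae, the other gene of release and breakdown, was the farthest of the 10 apart from Nanp, whose level was too low for this comparison, at rank 5342 with 0.72 log2 units.

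**Figure D3:**
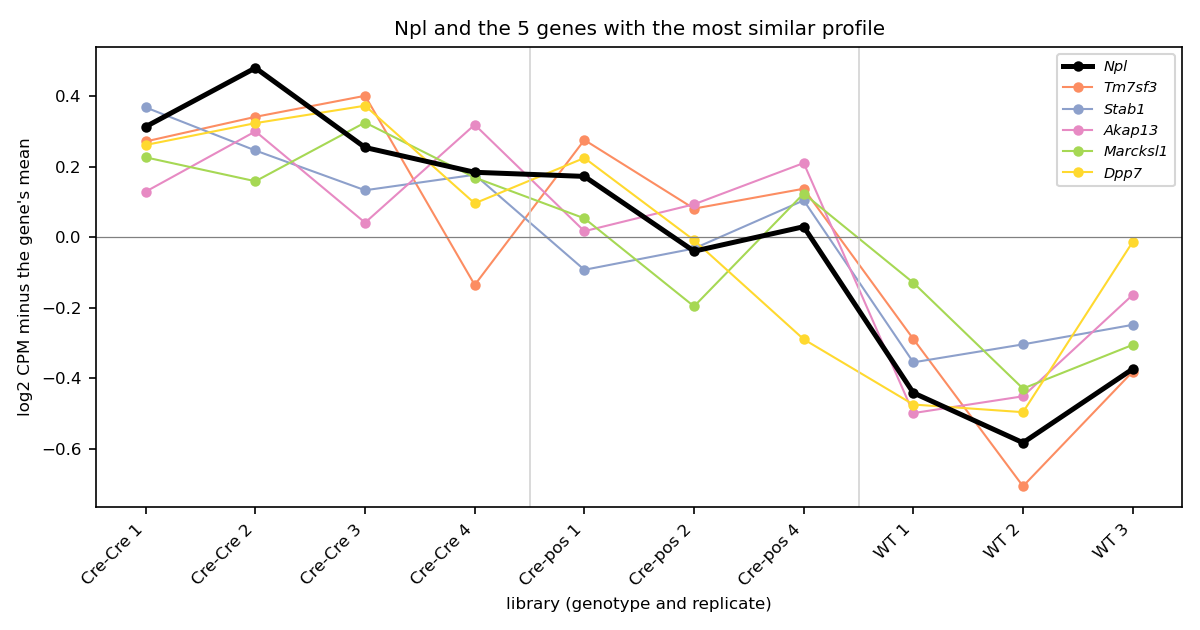
Log2 CPM minus the gene's own mean, for Npl (black) and the 5 genes nearest to it, in the 10 libraries in the order Cre-Cre, Cre-pos and WT. All 6 genes lie below their own mean in the 3 WT libraries. In Cre-Cre libraries they lie above it, except Tm7sf3 in replicate 4.

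Upstream of the lyase stands the lysosomal complex that frees sialic acid. Neu1, its sialidase, did not differ between genotypes beyond the spread among mice. It was at 238, 223, 198 and 221 CPM in Cre-Cre, 182, 239.9 and 192 CPM in Cre-pos, and 232, 164 and 167 CPM in WT mice. The genotypes overlapped in every pairing. Log2 fold changes of Neu1 were 0.23 ± 0.16 for Cre-Cre against WT, 0.12 ± 0.17 for Cre-pos against WT and 0.11 ± 0.16 for Cre-Cre against Cre-pos, and the last 2 had an adjusted p of 1 by edgeR. The 95% interval for Cre-pos against WT, -0.25 to 0.49, leaves room for a change of either sign.

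Ctsa encodes the protective protein that Neu1 needs for its activity, and Glb1 the beta-galactosidase of the same complex. Ctsa was far more abundant than Neu1, at 494 CPM per kb over all libraries, and its log2 fold change was 0.22 ± 0.13 for Cre-Cre against WT and 0.09 ± 0.13 for Cre-pos against WT. Glb1 was at 237, 230.2, 249 and 262 CPM in Cre-Cre, 173, 233 and 206 CPM in Cre-pos, and 162, 145 and 177 CPM in WT mice. Every Cre-Cre library thus lay above every WT library, and Cre-pos libraries overlapped both. For Glb1 the log2 fold change was 0.60 ± 0.13 for Cre-Cre against WT, with an adjusted p of 0.276, and 0.34 ± 0.14 for Cre-pos against WT, with an adjusted p of 0.791 (edgeR), so Glb1 passed in neither. Per 10000 CPM of the border macrophage markers, Glb1 stood at 115 to 129.9 CPM in Cre-Cre, 107 to 155 CPM in Cre-pos and 88.1 to 124 CPM in WT libraries, and the genotypes overlapped.

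Other sialidases were scarce. Neu2 and Neu4 had no counts in any library, and Neu3, a sialidase of the cell membrane, had 0 counts in 5 of the 10 libraries and up to 7.41 CPM in WT replicate 3. Slc17a5, the carrier that exports sialic acid from the lysosome, averaged 97.6 ± 16.6 CPM in Cre-Cre, 70.1 ± 33.5 CPM in Cre-pos and 70.8 ± 42.4 CPM in WT mice. Its fold change had an interval from -0.44 to 1.36 on the log2 scale for Cre-Cre against WT, wide enough to hold the difference seen for Npl.

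Siae, an esterase that removes acetyl groups from sialic acid so that sialidases and siglecs can act on it, had the lowest levels in Cre-pos mice. It was at 87.6, 99.1, 109.8 and 114 CPM in Cre-Cre, 56.8, 61.9 and 48.8 CPM in Cre-pos, and 66.8, 184 and 117 CPM in WT mice. The 3 Cre-pos libraries lay below all others, while Cre-Cre and WT libraries overlapped. For Cre-pos against WT the log2 fold change was -1.13 ± 0.31, with a 95% interval of -1.82 to -0.45 (edgeR, adjusted p = 0.750). Cre-Cre against Cre-pos gave 0.88 ± 0.29 (edgeR, adjusted p = 1), and Cre-Cre against WT gave -0.26 ± 0.28. DESeq2 called Siae in Cre-pos against WT, with an adjusted p of 0.0285. WT replicate 2 weighed heavily: without it, the log2 fold change was -0.72 for Cre-pos against WT, and for Cre-Cre against WT it turned to 0.17. The level of Siae did not follow the number of alleles, and its counts can include reads of neighbours, since 10.8% of its exon bases in GENCODE vM21 are shared with Spa17 and Tbrg1.

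On the route of the amino sugar that the lyase releases, Renbp, which interconverts N-acetylmannosamine and N-acetylglucosamine, averaged 216 ± 25.7 CPM in Cre-Cre, 167 ± 28.8 CPM in Cre-pos and 201 ± 56.5 CPM in WT mice. Gnpda1, which turns glucosamine phosphate into fructose phosphate, averaged 236 ± 18.8 CPM in Cre-Cre, 230.0 ± 10.96 CPM in Cre-pos and 257.5 ± 38.7 CPM in WT mice. Neither passed in any comparison, and their genotypes overlapped in each. None of the 5 genes of this group was called by edgeR or DESeq2, and 3 of 5 had a positive log2 fold change in Cre-Cre against WT and 1 of 5 in Cre-pos against WT.

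Synthesis of sialic acid begins with Gne, the epimerase and kinase that sets the rate of the pathway. Gne was at 28.3, 17.5, 21.96 and 21.8 CPM in Cre-Cre, 16.02, 27.6 and 43.4 CPM in Cre-pos, and 17.2, 22.8 and 28.3 CPM in WT mice. All genotypes overlapped, and the widest spread was among the Cre-pos mice. The log2 fold change of Gne was -0.03 ± 0.37 for Cre-Cre against WT, 0.35 ± 0.40 for Cre-pos against WT and -0.37 ± 0.37 for Cre-Cre against Cre-pos, and the sign of each turned when 1 library was left out. The 95% interval for Cre-pos against WT reached from -0.53 to 1.23.

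Nans, the synthase that condenses N-acetylmannosamine phosphate with phosphoenolpyruvate, was at 43.5, 26.1, 48.0 and 51.2 CPM in Cre-Cre, 41.8, 56.8 and 31.5 CPM in Cre-pos, and 39.2, 32.9 and 26.3 CPM in WT mice. Most libraries with the allele lay above the WT mean of 32.8 ± 6.45 CPM, but the lowest Cre-Cre library lay below every WT library. Its log2 fold change was 0.36 ± 0.30 for Cre-Cre against WT and 0.40 ± 0.32 for Cre-pos against WT (adjusted p of 1 by edgeR for the second). Trim14 shares 29.6% of the exon bases of Nans in GENCODE vM21, so part of these counts may belong to it.

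Nanp, the phosphatase of the next step, was barely detected, with 12 to 65 counts a library. It stood at 1.05, 1.74, 0.556 and 1.57 CPM in Cre-Cre, 1.73, 2.002 and 1.08 CPM in Cre-pos, and 1.46, 0.367 and 1.46 CPM in WT mice. With a 95% interval of -2.34 to 3.43 for the log2 fold change of Cre-pos against WT, these counts cannot show a change of the size seen for Npl. Of the 50-base stretches of its transcripts, 50.8% also occur in other genes of GENCODE vM21, Gm6741 and Ninl among them.

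Cmas, which activates sialic acid by coupling it to CMP, was at 41.2, 37.1, 54.2 and 44.4 CPM in Cre-Cre, 28.3, 45.3 and 34.6 CPM in Cre-pos, and 45.4, 29.5 and 50.6 CPM in WT mice. The genotypes overlapped, with log2 fold changes of 0.08 ± 0.27 for Cre-Cre against WT, -0.21 ± 0.28 for Cre-pos against WT and 0.29 ± 0.27 for Cre-Cre against Cre-pos. Cmah, which turns the activated sugar from its acetyl to its glycolyl form in mice, was at 42.9, 37.5, 41.5 and 48.0 CPM in Cre-Cre, 81.4, 47.1 and 44.1 CPM in Cre-pos, and 58.0, 99.6 and 99.8 CPM in WT mice. Every Cre-Cre library lay below every WT library, and the Cre-pos libraries overlapped both. The log2 fold change of Cmah was -1.01 ± 0.27 for Cre-Cre against WT, with an adjusted p of 0.391, and -0.58 ± 0.29 for Cre-pos against WT, with an adjusted p of 0.791 (edgeR), so it passed in neither.

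Uap1 makes the UDP-N-acetylglucosamine from which synthesis starts, and Gfpt1 encodes the enzyme that opens that supply route. Uap1 was at 112.5, 111.4, 83.9 and 95.4 CPM in Cre-Cre, 82.7, 68.9 and 38.4 CPM in Cre-pos, and 86.5, 56.6 and 80.2 CPM in WT mice. All Cre-Cre libraries lay above all Cre-pos libraries, the lowest of them only just, and WT libraries overlapped both. The log2 fold change of Cre-Cre against Cre-pos was 0.67 ± 0.27 (edgeR, adjusted p = 1). Gfpt1 averaged 20.6 CPM over all libraries, with log2 fold changes of -0.19 ± 0.44 for Cre-Cre against WT and -0.0043 ± 0.47 for Cre-pos against WT.

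Slc35a1 carries CMP-sialic acid into the Golgi, where the sialyltransferases use it. Slc35a1 averaged 48.8 ± 11.9 CPM in Cre-Cre, 49.0 ± 4.88 CPM in Cre-pos and 57.8 ± 16.5 CPM in WT mice, with overlap in every pairing. Of 20 sialyltransferases, 13 had enough counts to be tested, and neither edgeR nor DESeq2 called any of them in any comparison. St8sia4, a polysialyltransferase, averaged 261 ± 24.8 CPM in Cre-Cre, 238 ± 74.7 CPM in Cre-pos and 235 ± 41.9 CPM in WT mice. St3gal6, of the St3gal family, averaged 248 ± 70.2 CPM in Cre-Cre, 237 ± 32.6 CPM in Cre-pos and 241 ± 54.9 CPM in WT mice. These were the most abundant enzymes of their families by CPM, and their genotypes overlapped in every pairing. St6galnac4 averaged 232 ± 34.5 CPM in Cre-Cre, 187 ± 41.4 CPM in Cre-pos and 211 ± 29.8 CPM in WT mice, and St6gal1 averaged 175 ± 27.8 CPM in Cre-Cre, 149 ± 22.4 CPM in Cre-pos and 148 ± 52.0 CPM in WT mice. Their largest log2 fold change was 0.31 ± 0.18, for St6galnac4 in Cre-Cre against Cre-pos. St3gal4 had log2 fold changes of -0.31 ± 0.44 for Cre-Cre against WT and -0.10 ± 0.47 for Cre-pos against WT.

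The receptors were abundant in all 3 genotypes. Siglec1, the sialoadhesin of macrophages, which binds sialylated partners and whose transcript is known to respond to type I interferon, varied more among mice than between genotypes. It was at 254, 276, 392 and 486 CPM in Cre-Cre, 285, 199 and 390.5 CPM in Cre-pos, and 439.8, 273 and 244 CPM in WT mice. Each genotype held libraries at both the high and the low end of this range. Log2 fold changes of Siglec1 were 0.14 ± 0.30 for Cre-Cre against WT, -0.13 ± 0.32 for Cre-pos against WT and 0.27 ± 0.30 for Cre-Cre against Cre-pos.

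The titles of the samples carry a letter, m or f. Siglec1 was higher in the f libraries of both genotypes with the allele, at 392 and 486 CPM against 254 and 276 CPM in m libraries of Cre-Cre mice, and at 390.5 CPM against 285 and 199 CPM in Cre-pos mice. In WT mice the f library, at 244 CPM, was the lowest. A fit with an interaction of letter and genotype, added after the values had been seen, gave a difference in the f minus m log2 level of 1.28 between Cre-Cre and WT mice (edgeR, adjusted p = 0.768) and of 1.24 between Cre-pos and WT mice (adjusted p = 0.583). The summed level of 15 interferon response genes was 1271, 1062, 1829 and 1503 CPM in Cre-Cre, 1484, 1199.6 and 2421 CPM in Cre-pos, and 3054, 1711 and 1864 CPM in WT replicates. The library with the highest Siglec1 of its genotype was also the highest in that sum in Cre-pos and WT mice but not in Cre-Cre mice, and the part of interferon response in Siglec1 was not tested. The genes with the nearest profile were Reps1 and Ogfod3, both at a root-mean-square difference of 0.21 log2 units, Cat at 0.22, Phrf1 at 0.23 and Oxr1 at 0.24, against a median of 0.56.

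Cd33, a myeloid siglec whose human counterpart carries inhibitory motifs, had the lowest coefficient of variation of the 10 genes over all libraries, 12.8%, against 13.99% for Neu1. It was at 342, 352, 322 and 382.7 CPM in Cre-Cre, 398, 429 and 397 CPM in Cre-pos, and 409.5, 275 and 404 CPM in WT mice. The Cre-Cre libraries lay below the Cre-pos libraries, and WT replicate 2 lay below all others. For Cre-Cre against Cre-pos the log2 fold change was -0.22 ± 0.14, with an interval of -0.53 to 0.09 (edgeR, adjusted p = 1). Against WT mice it was -0.05 ± 0.14 for Cre-Cre and 0.17 ± 0.15 for Cre-pos.

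Siglece, the inhibitory siglec of mouse myeloid cells, was at 141, 186, 149.7 and 147 CPM in Cre-Cre, 164, 147 and 140.1 CPM in Cre-pos, and 103, 202 and 196 CPM in WT mice. The WT libraries spanned the range of both other genotypes. The log2 fold change of Siglece was -0.10 ± 0.22 for Cre-Cre against WT, -0.15 ± 0.23 for Cre-pos against WT and 0.05 ± 0.22 for Cre-Cre against Cre-pos. For this last pair the 95% interval was -0.43 to 0.54.

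Of the siglecs beside these 3, Cd22 is known from B cells and is also made by microglia. It had the lowest unadjusted p of the list outside the 10 genes in Cre-pos against WT. Cd22 was at 23.7, 13.6, 18.4 and 23.7 CPM in Cre-Cre, 29.4, 20.2 and 20.7 CPM in Cre-pos, and 37.4, 63.8 and 50.7 CPM in WT mice. Both genotypes with the allele lay below every WT library. Log2 fold changes of Cd22 were -1.35 ± 0.30 for Cre-Cre against WT (edgeR, adjusted p = 0.290) and -1.11 ± 0.33 for Cre-pos against WT (edgeR, adjusted p = 0.791). The other 9 B cell markers summed to 259 to 412 CPM in Cre-Cre, 344 to 451 CPM in Cre-pos and 466 to 721 CPM in WT libraries, while Pax5 and Ly6d were at or near 0, with means of at most 0.0302 CPM in any genotype. The part of B cells or microglia in Cd22 was not tested.

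Siglech, a siglec of microglia that signals through the adaptor encoded by Tyrobp, was named after its values had been seen. It was at 46.1, 73.0, 93.3 and 87.2 CPM in Cre-Cre, 89.2, 163 and 159 CPM in Cre-pos, and 109, 116 and 223 CPM in WT mice. Cre-Cre libraries lay below WT libraries and overlapped Cre-pos libraries only through Cre-Cre replicate 3 and Cre-pos replicate 1. Its log2 fold change was -0.996 ± 0.33 for Cre-Cre against WT (adjusted p of 0.572) and -0.87 ± 0.33 for Cre-Cre against Cre-pos (adjusted p of 1), both by edgeR. Over the other 9 microglia markers the median log2 fold change was -1.33 for Cre-Cre against WT and -0.95 for Cre-Cre against Cre-pos, each larger in size than that of Siglech, and 1 of the 9 lay above 0. The part of microglia in Siglech was not tested.

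Siglecf, Siglecg and Mag were also named after their values had been seen, and Siglec15 had no counts in any library. Siglecf was listed at 0 in all 3 Cre-pos libraries, at 0 to 5.77 CPM in Cre-Cre and at 0 to 24.5 CPM in WT libraries. Siglecg was at 0 to 1.27 CPM in Cre-Cre, 0 to 0.493 CPM in Cre-pos and 0 to 1.46 CPM in WT libraries, and Mag, the siglec of myelin, ran from 0.0586 to 20.2 CPM in Cre-Cre, 4.07 to 13.6 CPM in Cre-pos and 0.397 to 8.19 CPM in WT libraries. Among the signalling partners, Tyrobp averaged 1690 ± 94.3 CPM in Cre-Cre, 1729 ± 211 CPM in Cre-pos and 1594 ± 121 CPM in WT mice. Ptpn6, the phosphatase recruited by inhibitory siglecs, averaged 414 ± 23.9 CPM in Cre-Cre, 434 ± 24.7 CPM in Cre-pos and 467 ± 142 CPM in WT mice. Log2 fold changes of Tyrobp lay between -0.03 and 0.12 in the 3 comparisons.

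**Figure D4:**
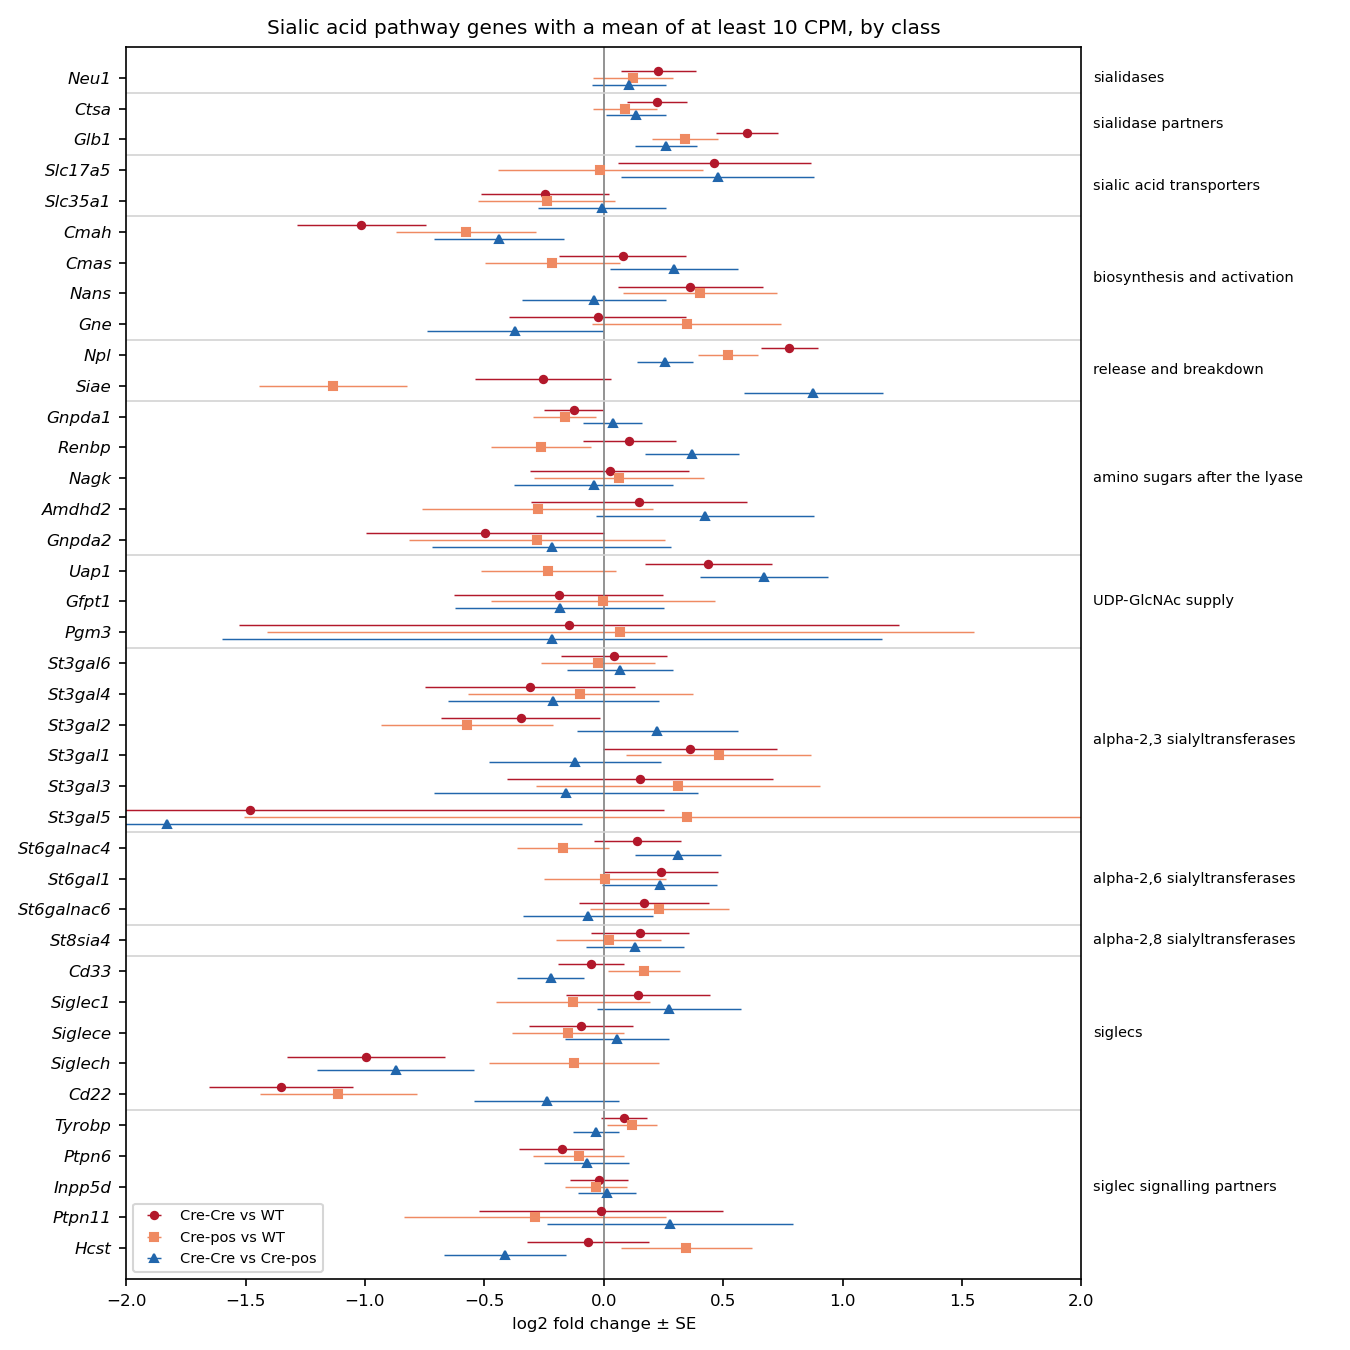
Log2 fold changes with SE of the pathway genes with a mean of at least 10 CPM, grouped by role, for Cre-Cre against WT (red circles), Cre-pos against WT (orange squares) and Cre-Cre against Cre-pos (blue triangles). Npl at 0.78 and Glb1 at 0.60 lie right of 0 and Cd22 at -1.35 and Cmah at -1.01 left of it in Cre-Cre against WT, and the bars of St3gal5 run past the axis.

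Counted over the 10 genes, edgeR called 0 at an adjusted p under 0.05 in each comparison, beside 0.0642% of all tested genes for Cre-Cre against WT, 0% for Cre-pos against WT and 0.0214% for Cre-Cre against Cre-pos. DESeq2 called 1 of the 10 for Cre-Cre against WT, 2 for Cre-pos against WT and 0 for Cre-Cre against Cre-pos, where it called 294, 236 and 123 of all genes. The 10 genes were chosen with the first contrast in view, so nothing is read from its counts. The other contrasts share its WT or Cre-Cre libraries, so for Npl they are not free of that choice. At an unadjusted p under 0.05, 1 of 10 passed for Cre-Cre against WT, where the share over all genes was 7.52%. For Cre-pos against WT 2 of 10 did, Npl and Siae, where that share was 5.82%, and for Cre-Cre against Cre-pos 1 of 10 did, Siae, where it was 4.86%. Groups of CPM without overlap occurred in 1 of 10 genes for Cre-Cre against WT (7.97% of all genes), in 2 of 10 for Cre-pos against WT (9.6%) and in 3 of 10 for Cre-Cre against Cre-pos (7.47%). With 10 genes, these counts are too small to set the group apart from the background.

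The median log2 fold change of the 10 genes was 0.11 for Cre-Cre against WT, 0.15 for Cre-pos against WT and 0.08 for Cre-Cre against Cre-pos, beside 0.02 for Cre-Cre against WT, 0.0090 for Cre-pos against WT and 0.0081 for Cre-Cre against Cre-pos over all genes tested. In each comparison 6 of the 10 lay above 0. The wider list of 59 sialic acid and siglec genes, of which 48 were tested and 10 are the genes above, had 0 called by edgeR in every comparison. DESeq2 called 4 of the 48 for Cre-Cre against WT, 3 for Cre-pos against WT and 1 for Cre-Cre against Cre-pos, beside 294, 236 and 123 of all 14023 genes. The medians of the list were 0.0064 for Cre-Cre against WT, -0.03 for Cre-pos against WT and -0.02 for Cre-Cre against Cre-pos. At an unadjusted p under 0.05 in edgeR the list held 5 genes for Cre-Cre against WT, 5 for Cre-pos against WT and 4 for Cre-Cre against Cre-pos. The shares over all genes were 7.52%, 5.82% and 4.86%. The list was chosen with earlier results known and holds Npl, so nothing is read from these counts. In Cre-Cre against WT mice 24 of the 48 lay above 0, with Npl and Glb1 on the higher side and Cmah, Cd22 and Siglech on the lower.

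**Figure D5:**
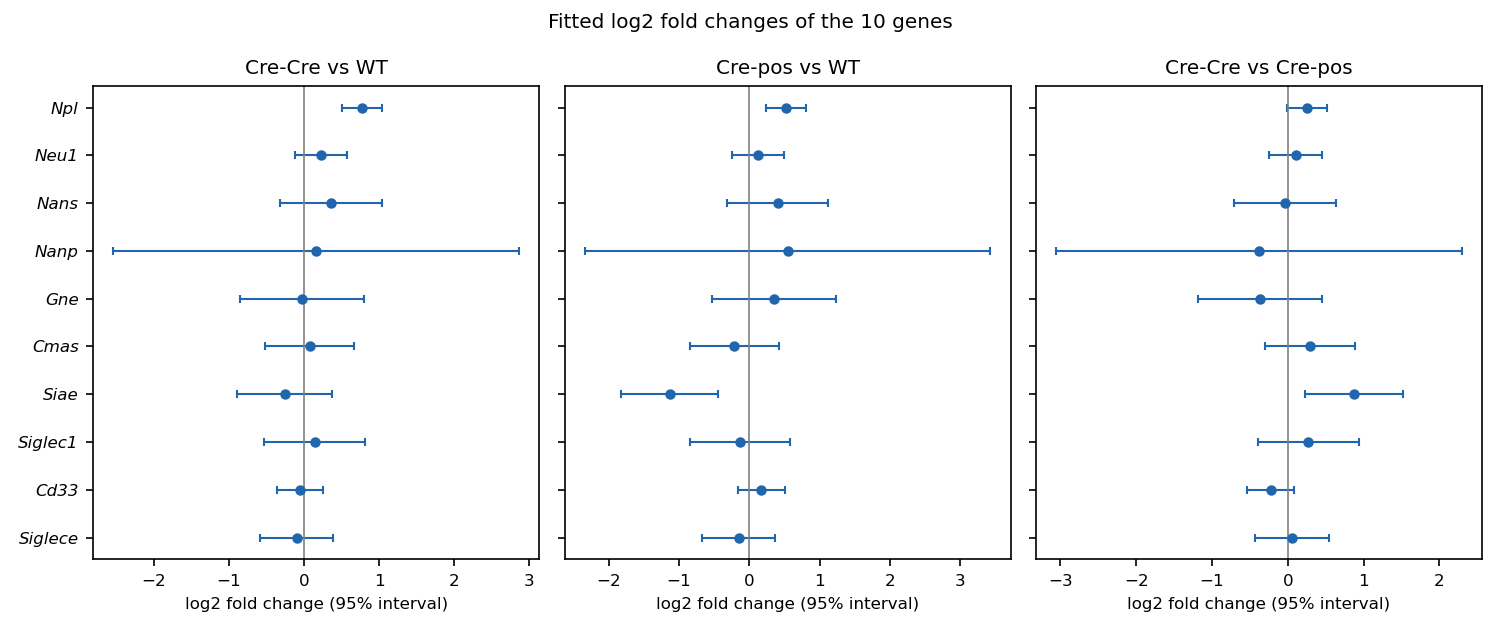
Fitted log2 fold change with its 95% interval for each of the 10 genes in the 3 comparisons. For Npl the interval is 0.51 to 1.04 in Cre-Cre against WT, 0.24 to 0.80 in Cre-pos against WT and -0.0069 to 0.52 in Cre-Cre against Cre-pos, and that of Nanp is the widest in each panel.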

How the data were processed

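The values are the authors' deposited raw counts, whole numbers by gene symbol, for 10 libraries. Their titles share a prefix but name no batch. Per the labels' protocols, 500 pg of RNA entered a SMARTer kit that does not mark strand, followed by Nextera XT. The submitters' processing notes name bcl2fastq (2.20), STAR (2.7.8a) and featureCounts (2.0.2). No source used here gives the genome build, the annotation or the strand setting, so coordinates are left out and reads of overlapping genes cannot be told apart. GENCODE vM21, which holds 93.5% of the symbols, supplied exon lengths and shared sequence.

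Of 53546 genes, 22778 had counts. After filterByExpr by genotype (minimum count 10, minimum total 15), 14023 genes with 99.9% of counts remained. The test was edgeR 4.0.16 (R 4.3.3), robust quasi-likelihood, TMM factors, all 10 libraries, genotype as the only term, Benjamini-Hochberg adjustment over all genes, calls at an adjusted p under 0.05. A standard error is the log2 fold change over the square root of F. The procedure was tested on simulated counts. Chi-square per gene was at least 91.7 between any 2 libraries of a genotype, so none was a repeat of another. The reads carry no molecular identifiers.

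The genes and lists were chosen with earlier results of these data known. Named beside the 10 genes were, per group of the pathway list, the 2 with the highest mean CPM and any with an unadjusted p under 0.01, plus Mrc1 and the 5 genes nearest in profile to Npl and to Siglec1. Any other was chosen after its values were seen. A single marker gene is not reported here. Alternatives were DESeq2 1.42.0, limma-voom (limma 3.58.1), other scaling, filters and covariates, a replicate block, the 2 genotypes alone, and each library left out. Figures used matplotlib.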

Additional observations from a re-analysis of the deposited data

Results flagged for a closer look

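St8sia6, a sialyltransferase gene with few counts, was at 1.74 CPM in Cre-Cre replicate 2 and had 0 counts in the other 3 Cre-Cre libraries, which set that library far from the rest of its genotype. It also had 0 counts in 2 of the 3 Cre-pos libraries, with 4.04 CPM in replicate 2, and stood at 0, 10.9 and 30.6 CPM in WT replicates 1 to 3. With 3 libraries at 0, any count in the fourth sets it apart, so nothing is read from it.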

How the results depend on the processing

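Under 19 alternatives, Npl kept the sign of its log2 fold change in each comparison, at 0.71 to 0.83 for Cre-Cre against WT, 0.45 to 0.57 for Cre-pos against WT and 0.19 to 0.33 for Cre-Cre against Cre-pos. Of the 10 genes, 3, 5 and 7 kept their sign throughout in these comparisons. Among the 10 genes and the pathway list, only DESeq2 moved the counts of called genes. For Cre-Cre against WT it called 1 of the 10 genes, Npl, from which nothing is read because Npl was chosen on this contrast, and 4 of the pathway list (also Cd22, Glb1 and Cmah). For Cre-pos against WT, which shares the WT libraries of that contrast, DESeq2 called 2 of the 10 and 3 of the list (also Siglecf). The 2 were Npl, adjusted p = 0.0251, and Siae, adjusted p = 0.0285. For Cre-Cre against Cre-pos it called 0 of the 10 and 1 of the list (Siglecf). Siglecf had 0 counts in all 3 Cre-pos libraries, and also in Cre-Cre replicate 2 and WT replicate 1. Nothing is therefore read from its calls. Over all genes DESeq2 called 294, 236 and 123, against 9, 0 and 3 by edgeR, and the cause was not tested. The other 18 alternatives called 1 (replicate block) to 17 (title letter as a covariate) of all genes for Cre-Cre against WT, with 2 to 12 when a library was left out, 0 for Cre-pos against WT and 1 to 4 for Cre-Cre against Cre-pos. The adjusted p of Npl over the alternatives ran from 0.0251 to 1 for Cre-pos against WT.

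With a replicate block, Npl was at 0.80 for Cre-Cre against WT, Siglec1 turned to -0.029 for Cre-Cre against WT and Siglece to -0.0100 for Cre-Cre against Cre-pos, with 0 of the 10 genes called. The deviations of same-numbered libraries had an r of -0.01 to 0.03 over 8 pairs, within the -0.05 to 0.05 of the 25 others. With 3 or 4 mice a genotype, these values cannot exclude that the numbers pair the mice.

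Signs turned as single libraries were left out. For Cre-Cre against WT the ranges were -0.25 to 0.44 for Nanp, -0.18 to 0.16 for Gne, -0.12 to 0.24 for Cmas, -0.55 to 0.17 for Siae, -0.054 to 0.45 for Siglec1, -0.21 to 0.050 for Cd33 and -0.34 to 0.069 for Siglece. For Cre-pos against WT they were -0.0083 to 0.30 for Neu1, -0.071 to 0.63 for Gne, -0.41 to 0.17 for Siglec1, -0.0020 to 0.26 for Cd33 and -0.41 to 0.0048 for Siglece. For Cre-Cre against Cre-pos they were -0.22 to 0.20 for Nans, -0.66 to 0.047 for Gne and -0.041 to 0.13 for Siglece. Nanp had only 12 to 65 counts a library.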
